A study of Rattus norvegicus with 24 samples.

Results

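The miR-200 family is a set of microRNAs (miRNAs, short RNAs that lower the output of the messenger RNAs they pair with) made from the genes Mir200a, Mir200b, Mir200c, Mir141 and Mir429. It was followed here in small RNA sequencing of rat perilesional cortex and ipsilateral thalamus. Members were taken by name alone: every deposited miRNA named miR-200a, miR-200b, miR-200c, miR-141 or miR-429, on either arm of its hairpin. The main arms are rno-miR-200a-3p, rno-miR-200b-3p, rno-miR-200c-3p, rno-miR-141-3p and rno-miR-429, written below without the species prefix. The rule found 9 of the 728 miRNAs listed, and 8 of the 9 had at least 1 read.

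All animals were adult Sprague-Dawley rats with no genetic change, described in the methods as males. TBI rats received lateral fluid-percussion injury, a brief pressure wave of saline delivered to the brain through an opening in the skull, and sham rats (labelled Control) had anesthesia and the same surgery without the impact. Tissue was taken 3 months after surgery, and each of the 12 rats (6 TBI and 6 sham) gave 1 cortex and 1 thalamus library, so there were 24 libraries. The TBI rats had been picked by imaging for chronic inflammation around the lesion, and both pieces were dissected by hand from a coronal slice, so each piece is bulk tissue that can hold more than brain parenchyma. In such tissue, fewer cells of a type and less RNA per cell cannot be told apart.

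The miR-200 family is best known for holding epithelial cells in their epithelial state: its members repress the transcription factors ZEB1 and ZEB2, which themselves repress the miR-200 genes. Brain parenchyma has little epithelium, and the lining tissues of the brain are the choroid plexus, which secretes cerebrospinal fluid, and the ciliated ependyma of the ventricles. miR-204 and miR-211 are abundant in choroid plexus, and miR-34b, miR-34c and miR-449 are typical of cells with many cilia.

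A miRNA finds its targets mainly through the seed, bases 2 to 8 from its 5′ end. miR-200b-3p, miR-200c-3p and miR-429 are known to share a seed, and miR-200a-3p and miR-141-3p share another. RefSeq (GRCr8) mature sequences were matched for 6 of the 9 members and are printed 5′ to 3′ with the seed in capitals. The first pair shows how close the seed groups are, and the others are the opposite (5p) arms, which were nearly unread in these libraries.

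miR-200c-3p: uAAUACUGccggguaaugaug
miR-141-3p: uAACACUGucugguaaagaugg
miR-200a-5p: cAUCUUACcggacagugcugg
miR-200b-5p: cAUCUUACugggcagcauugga
miR-200c-5p: cGUCUUACccagcaguguuug
miR-141-5p: uCCAUCUUccagugcaguguug

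Counted from 1 at the 5′ end, miR-141-3p and miR-200c-3p had the same base at 17 of 21 positions, and the seeds differed only by C4U (the miR-141-3p base first). The other differences were U9C, U11G and A17U. Among the 5p arms, miR-200a-5p and miR-200b-5p had the same seed. miR-200a-3p, miR-200b-3p and miR-429 complete the family. In the RefSeq annotation, Mir200b, Mir200a and Mir429 lay on 1 chromosome within 1908 bases, and Mir200c and Mir141 lay together within 509 bases, so the seed groups cross the gene clusters.

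The libraries held 744564 to 4069284 miRNA reads in cortex and 523298 to 4139901 in thalamus. Levels are given as CPM, the reads of a miRNA per 1000000 miRNA reads after scaling by trimmed mean of M-values (TMM). At these depths 3 reads, the limit that a count of 0 allows, were 0.737 to 4.03 unscaled CPM in cortex and 0.725 to 5.73 in thalamus, so several members lay near the limit of detection of a single library. Intervals and limits cover counting error only, since copies made by PCR are not separate molecules.

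Both libraries of TBI rat 45 stood apart from the rest in the summed family. Rat 45 was the highest library of its region for miR-200a-3p and miR-200b-3p in both regions. For miR-200c-3p it was the highest in cortex but not in thalamus, where rat 56 was above it on 10 reads. Of the 938 family reads in the 24 libraries, 396 (42.2%) were from rat 45. Its cortex library held 179 family reads (137 CPM, exact 95% Poisson interval 118 to 159) and its thalamus library held 217 (52.8 CPM, 46.0 to 60.3). The tests on TBI rats are therefore given with and without this rat.

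The family was rare in both regions. By mean CPM over the 24 libraries, miR-200c-3p was in place 355, miR-200a-3p in place 373 and miR-200b-3p in place 395 of the 728 miRNAs. miR-200c-3p had 385 reads in all and miR-200a-3p had 289, both with reads in all 24 libraries, while miR-200b-3p had 212 reads in 22 libraries. miR-200c-3p was above miR-200a-3p in 17 libraries, below it in 4 and equal in 3, and miR-200a-3p was above miR-200b-3p in 14, below it in 8 and equal in 2, so neighbours in this order were not separated in every library. The gap below them was wider: miR-200b-3p exceeded miR-429, its neighbour in the genome, in 21 of 24 libraries, and miR-200c-3p exceeded miR-141-3p in all 24. Reads of different miRNAs also depend on how well each is captured in the library, so this is an order of reads.

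The remaining members were barely read. miR-429 had 32 reads in 11 libraries, 14 of them in rat 45, and miR-141-3p had 15 reads in 11 libraries, 3 of them in rat 45. The 5p arms were close to nothing: miR-200a-5p had 2 reads, miR-200b-5p had 2, both in the cortex of rat 45, and miR-141-5p had 1. miR-200c-5p had 0 of 47424242 miRNA reads, which allows up to 0.0633 CPM over all libraries together.

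In cortex, miR-200a-3p ran from 0.669 to 6.22 CPM in the sham rats (median 4.43, mean 3.89 ± 2.29, SD, n = 6) and from 2.01 to 64.3 CPM in the TBI rats (median 5.88, mean 14.7 ± 24.4, SD, n = 6). The highest TBI value was that of rat 45, and the other 5 TBI rats lay between 2.01 and 8.01 CPM, over the range of the shams. miR-200b-3p ran from 0 to 2.29 CPM in shams (median 1.62) and from 0 to 39.1 CPM after TBI (median 3.56), again with rat 45 highest and the others at or below 4.03 CPM. miR-200c-3p, which belongs to the other gene cluster, ran from 3.42 to 9.86 CPM in shams (median 6.83) and from 4.58 to 25.3 CPM after TBI (median 8.43), with the other 5 TBI rats at or below 11.2 CPM.

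In thalamus the groups overlapped as well. miR-200a-3p ran from 1.00 to 5.94 CPM in shams (median 2.76) and from 0.631 to 17.3 CPM after TBI (median 2.25), where all TBI rats but rat 45 were at or below 4.97 CPM. miR-200b-3p ran from 0.660 to 6.72 CPM in shams (median 2.36) and from 0.631 to 15.6 CPM after TBI (median 2.85), with the other TBI rats at or below 7.87 CPM. For miR-200c-3p rat 45 was not the highest: the TBI range of 4.86 to 19.7 CPM (median 8.55) had rat 56 at its top and rat 45 at 17.8 CPM, and the sham range was 3.28 to 13.2 CPM (median 5.09).

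miR-429 and miR-141-3p were too scarce for an order of groups. miR-429 had reads in 1 of 6 sham and 3 of 6 TBI cortex libraries, with a highest value of 1.82 CPM in shams and 6.13 CPM after TBI, the latter in rat 45. In thalamus it reached 0.826 CPM in shams and 1.46 CPM after TBI. miR-141-3p did not exceed 0.573 CPM in any cortex library, with 0 reads in rat 45. In thalamus it reached 2.24 CPM in shams, on 1 read in rat 55, and 0.903 CPM after TBI, on 2 reads in rat 63. Rat 45 was at 0.730 CPM there on 3 reads, the most reads of this member in any library. Its exact Poisson interval (0.151 to 2.13 CPM) lay inside that of sham rat 55 (0.0567 to 12.5 CPM). So few reads cannot place rat 45 among the libraries for this member.

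**Figure D1:**
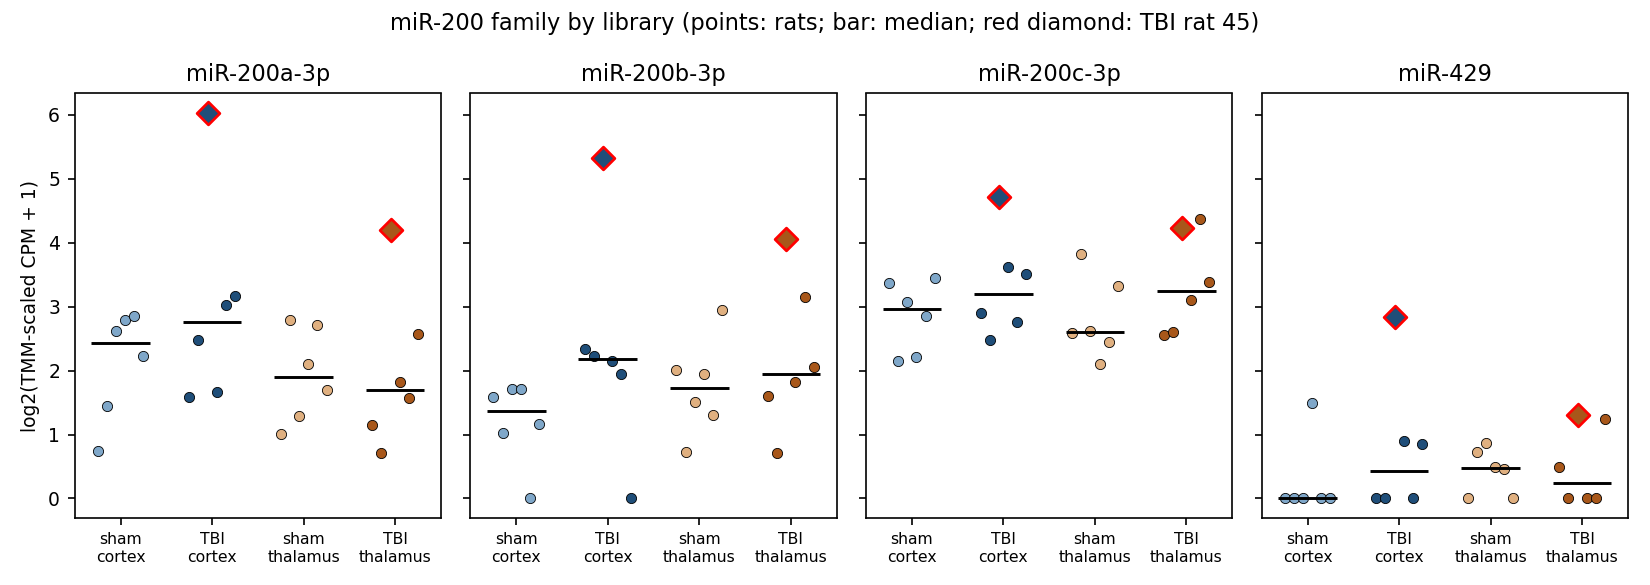
Level of miR-200a-3p, miR-200b-3p, miR-200c-3p and miR-429 as log2(TMM-scaled CPM + 1) (y axis) in the 4 groups (x axis); each point is 1 rat, the bar is the median of 6 rats, and the red-edged diamond is TBI rat 45. Rat 45 is highest of the TBI cortex libraries in all 4 panels, and sham and TBI points overlap in every panel.

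Summed over all members, the family was at 12.5 ± 3.37 CPM in sham cortex and 36.1 ± 49.6 CPM in TBI cortex, and at 13.6 ± 5.29 CPM in sham thalamus and 21.8 ± 17.3 CPM in TBI thalamus (mean ± SD, n = 6 each). The medians lay closer together, at 13.3 and 17.0 CPM in cortex and 11.4 and 16.5 CPM in thalamus. Without rat 45 the TBI medians were 15.8 CPM in cortex and 13.2 CPM in thalamus.

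Whether injury changed the family in cortex was tested with edgeR's quasi-likelihood test and Benjamini-Hochberg adjustment over all miRNAs tested. Only miR-200c-3p passed the filter on low counts, and 0 of 1 member was called, against 21 of 371 miRNAs (5.66%) in that comparison. The log2 fold change of miR-200c-3p, TBI over sham, was 0.79 (SE 0.45, edgeR adjusted p = 0.283), and 0.29 (SE 0.37) without rat 45. The other members were fitted without the filter, where 0 of 8 were called, against 17 of 572 miRNAs (2.97%). For miR-200b-3p the log2 fold change was 2.38 (SE 0.82, unadjusted p = 0.00892, edgeR adjusted p = 0.128) and for miR-200a-3p 1.96 (SE 0.79, unadjusted p = 0.0223, edgeR adjusted p = 0.210), so neither passed. Without rat 45 these became 0.88 (SE 0.52) for miR-200b-3p and 0.23 (SE 0.50) for miR-200a-3p, and miR-429 went from 1.37 (SE 1.13) to -0.21 (SE 1.11). A two-sided exact permutation test of mean CPM over every division of the 12 rats into groups of 6 gave p = 0.0628 for miR-200b-3p, p = 0.279 for miR-200a-3p and p = 0.275 for miR-200c-3p. Without rat 45 the same exact permutation test gave p = 0.121, 0.558 and 0.548 in that order.

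In thalamus 0 of 1 member tested was called, against 2 of 390 miRNAs (0.513%), and 0 of 6 without the filter, against 2 of 603 (0.332%). The miR-200c-3p log2 fold change was 0.70 (SE 0.43, edgeR adjusted p = 0.774), which was 0.46 (SE 0.44) without rat 45. Without the filter, miR-200b-3p went from 1.18 (SE 0.64, unadjusted p = 0.0851) to 0.16 (SE 0.55) when rat 45 was left out. miR-200a-3p changed sign, from 0.68 (SE 0.67) to -0.50 (SE 0.57), as did miR-429, from 0.44 (SE 0.76) to -0.22 (SE 0.84). The two-sided exact permutation p was 0.346 for miR-200b-3p, 0.807 for miR-200a-3p and 0.206 for miR-200c-3p, and without rat 45 it was 0.686, 0.403 and 0.442 in that order.

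**Figure D2:**
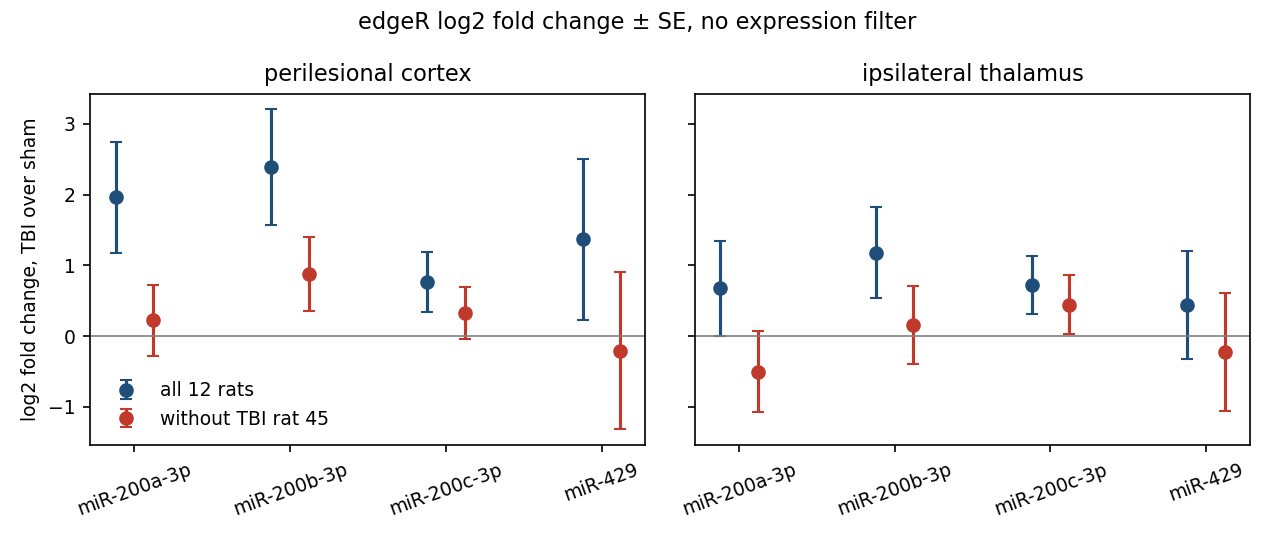
edgeR log2 fold change of TBI over sham (y axis; points are estimates and bars 1 SE) for 4 members (x axis) in cortex and thalamus, fitted without the filter on low counts, with all 12 rats in blue and without TBI rat 45 in red. In cortex miR-200a-3p moved from 1.96 to 0.23 and miR-200b-3p from 2.38 to 0.88 when that rat was left out.

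The regions were compared in 1 fit of all 24 libraries, in which miR-200a-3p and miR-200c-3p passed the filter. In sham rats 0 of these 2 were called, against 102 of 407 miRNAs (25.1%). The log2 fold change of thalamus over cortex was -0.19 (SE 0.93, edgeR adjusted p = 0.894) for miR-200a-3p and -0.03 (SE 0.47, edgeR adjusted p = 0.960) for miR-200c-3p. The sign for miR-200a-3p turned when libraries were scaled by size without TMM, and that for miR-200c-3p turned with several scalings. The standard errors leave room for sizeable differences either way. In TBI rats 0 of 2 were called, against 111 of 407 (27.3%), with -1.38 (SE 0.76, edgeR adjusted p = 0.200) for miR-200a-3p and -0.06 (SE 0.43, edgeR adjusted p = 0.939) for miR-200c-3p. Without rat 45 these were -0.82 (SE 0.62, edgeR adjusted p = 0.364) for miR-200a-3p and 0.16 (SE 0.41, edgeR adjusted p = 0.826) for miR-200c-3p.

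Both regions came from the same rats, and with rat as a block miR-200a-3p was called lower in the thalamus of TBI rats (log2 fold change -1.37, SE 0.41, edgeR adjusted p = 0.0151), against 131 of 407 miRNAs (32.2%) called in that fit. It was lower in the thalamus in 5 of 6 TBI rats. Without rat 45 the blocked value was -0.91 (SE 0.53, edgeR adjusted p = 0.203) and no longer passed. In the blocked fit of sham rats 0 of 2 members were called, against 128 of 407 (31.4%), and miR-200a-3p was lower in the thalamus in 4 of 6. Without the filter and without the block, 0 of 8 members were called in either group, against 96 of 613 miRNAs (15.7%) in sham and 112 of 613 (18.3%) in TBI rats. The interaction test, which asks whether the injury effect differed between the regions, was not passed by miR-200a-3p (-1.19, SE 1.21) or miR-200c-3p (-0.03, SE 0.64), with an edgeR adjusted p of 1.00 for both. Without rat 45 it was -0.72 (SE 0.83) for miR-200a-3p and 0.12 (SE 0.58) for miR-200c-3p, with edgeR adjusted p of 0.989 and 0.999. That test, with all rats, called 0 of 407 miRNAs (0%) by edgeR and 0 by DESeq2, with 16 at an unadjusted edgeR p under 0.05.

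The libraries of rat 45 were then described by the miRNAs that stood farthest above the next library of the region. In its cortex library, among 324 miRNAs with at least 20 reads in it, miR-200b-3p and miR-200a-3p led, at 9.70 and 8.04 times. No other cortex library had more than 10 reads of miR-200b-3p or 13 of miR-200a-3p, so both met that minimum only through rat 45. In all, 9 miRNAs were above 2 times. miR-200c-3p was 2.25 times the next library. The others of the 9 were miR-183-5p (5.15 times) and miR-182 (3.83), a pair typical of sensory cells, with miR-224-5p, miR-34b-5p, miR-375-3p and miR-34c-5p between 2.03 and 2.90. In its thalamus, with the same minimum, 17 of 400 miRNAs were above 2 times the next library, led by miR-483-3p (6.34) and miR-214-3p (5.97). There miR-200a-3p was in place 6 (2.91 times), miR-200b-3p in place 18 (1.98 times) and miR-200c-3p in place 107 (0.903 times, against a library with 10 reads of it). Only miR-200a-3p and miR-224-5p were above 2 times in both regions. The libraries and miRNAs of this ranking were chosen after the values were seen, and it has no test.

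**Figure D3:**
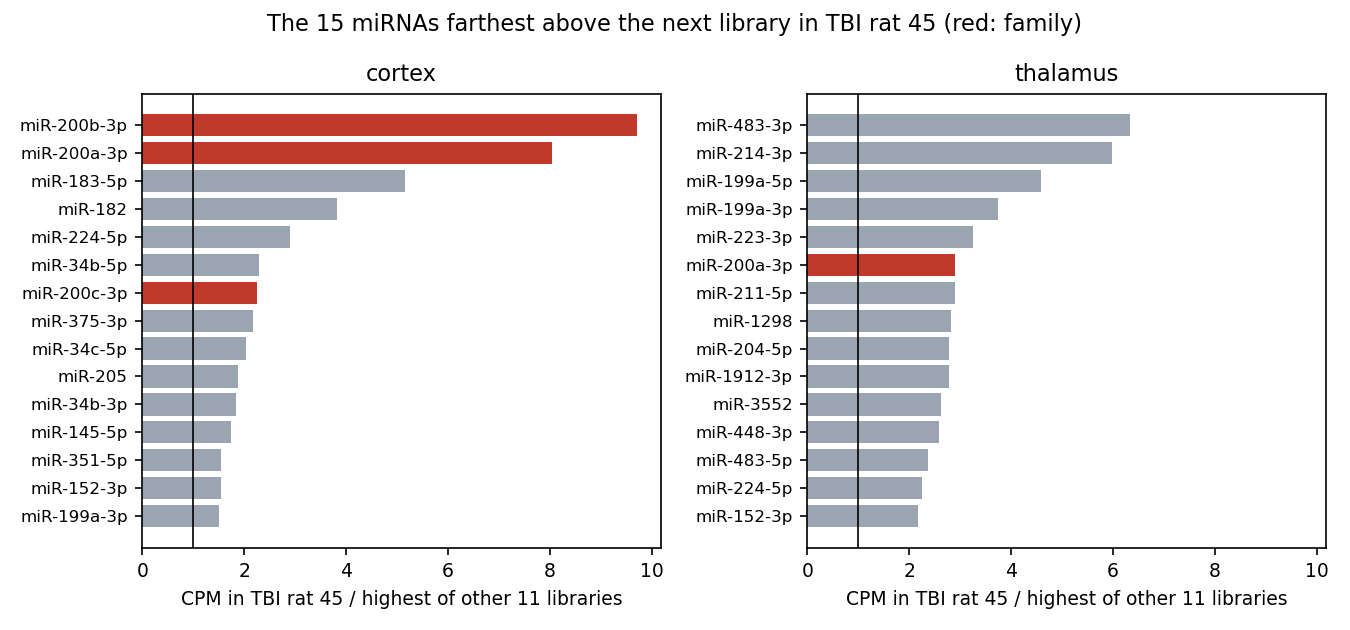
CPM in TBI rat 45 divided by the highest CPM of the other 11 libraries of the region (x axis, linear from 0), in cortex and thalamus. The y axis holds the 15 miRNAs with the highest ratio among those with at least 20 reads in rat 45. Family members are red and the vertical line marks a ratio of 1. The longest cortex bars are miR-200b-3p (9.70) and miR-200a-3p (8.04), while in thalamus miR-483-3p (6.34) leads and miR-200a-3p is at 2.91.

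The makeup of the family in rat 45 also leaned to one gene cluster. The Mir200b, Mir200a and Mir429 cluster gave 81.6% of its cortex family reads (exact binomial 95% interval 75.1 to 87.0%) and 65.0% of its thalamus family reads (58.2 to 71.3%). The other 11 libraries lay between 22.2 and 71.0% in cortex (median 46.9%) and between 19.0 and 61.5% in thalamus (median 44.4%). Rat 45 was thus above every other library of its region in this share, though most of the others rested on few reads.

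Since the family is typical of epithelium, its levels were set beside miRNAs of the choroid plexus and ependyma. Of 11 such miRNAs, 6 were tested for injury in cortex and 1 was higher, against 5.66% of all miRNAs called (median log2 fold change 0.76, against 0.05 for all miRNAs tested). In thalamus 7 were tested with 0 called, against 0.513% (0.28, against -0.03). The 1 called was miR-211-5p, at 1.33 (edgeR adjusted p = 0.0369), which no longer passed without rat 45 (1.20, edgeR adjusted p = 0.0778). Without that rat the medians of the list were 0.31 in cortex and -0.32 in thalamus, with 0 called in either.

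Thalamus was higher than cortex in 4 of 7 of these miRNAs tested in sham rats, against 25.1% of all miRNAs called in either direction (median 2.25, against 0.04), and in 5 of 7 in TBI rats, against 27.3% (1.79, against -0.03), and none was lower. With rat 45 left out of the fit, 5 of 7 were higher in sham rats, against 26.7% (2.34, against 0.11), and 4 of 7 in TBI rats, against 25.7% (1.45, against 0.06). The leading example, miR-34c-5p, was at a log2 fold change of 2.72 in sham rats (edgeR adjusted p = 2.25e-05) and 1.98 in TBI rats (edgeR adjusted p = 0.000757), or 1.84 without rat 45 (edgeR adjusted p = 8.04e-05). In the same fits miR-200a-3p was below 0 with and without that rat, and miR-200c-3p was within 0.16 of 0.

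The summed level of the 11 choroid plexus and ependyma miRNAs was 3566 CPM in the cortex of rat 45, against 1295 to 1977 CPM in the other TBI rats and 1249 to 2595 CPM in shams. In its thalamus it was 20458 CPM, against 2136 to 4674 CPM and 2582 to 8093 CPM. Of the defining miRNAs, miR-204-5p was at 2170 CPM in the cortex of rat 45 (other cortex libraries 929 to 1902) and at 13636 CPM in its thalamus (947 to 4891), and miR-211-5p was at 162 CPM in its thalamus (8.13 to 55.6). In cortex not all of them were high: miR-211-5p was at 56.7 CPM in rat 45, below another library at 82.0 CPM, and miR-204-3p was at 52.1 CPM, below another at 71.8 CPM. miR-449a-5p had 0 to 10 reads in any library and 0 in the cortex of rat 45. The summed level was thus highest of its region in rat 45 in both regions and higher in its thalamus, whereas the family was higher in its cortex. Their part in the family's level was not tested.

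Set against miR-204-5p, the reads of miR-200a-3p and miR-200b-3p together were 47.6 per 1000 in the cortex of rat 45 (135 against 2834 reads) and 2.41 per 1000 in its thalamus (135 against 56047). The other cortex libraries had 1.41 to 10.3 per 1000 and the other thalamus libraries 0.768 to 7.19. So the thalamus of rat 45 lay inside the range of its region and its cortex lay outside. The sham thalamus libraries of rats 34 and 50 were also rich in miR-204-5p, with 20832 and 13204 reads. They had 16 and 19 reads of miR-200a-3p and miR-200b-3p, or 0.768 and 1.44 per 1000. Their depths were unequal, at 4139901 and 2239292 miRNA reads.

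**Figure D4:**
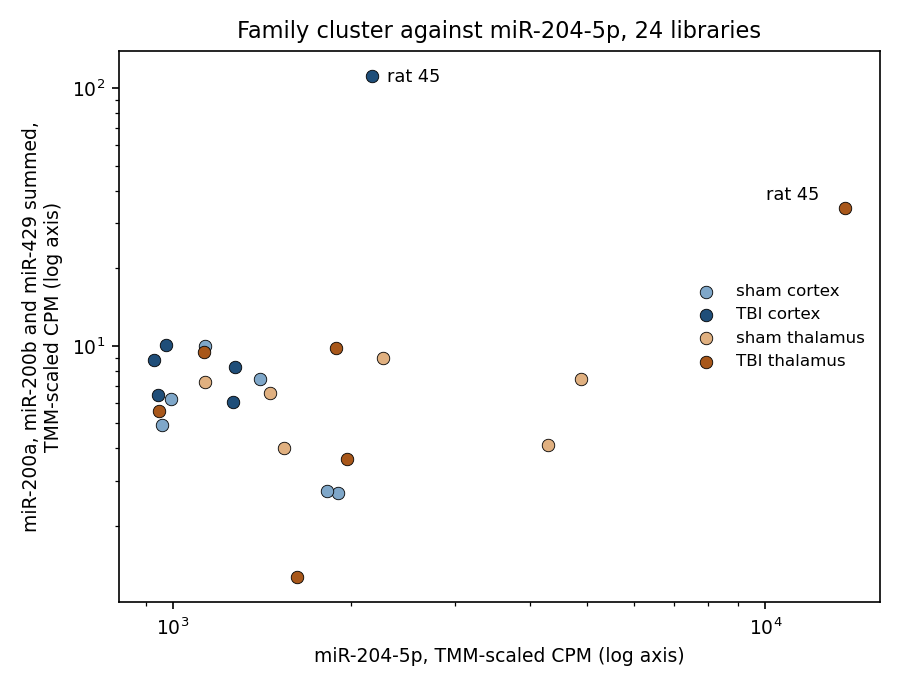
Summed CPM of miR-200a, miR-200b and miR-429 (y axis, log scale) against miR-204-5p CPM (x axis, log scale) in the 24 libraries, coloured by group. The cortex library of rat 45 stands above all others at 112 CPM of the family cluster, and its thalamus library is farthest right at 13636 CPM of miR-204-5p.

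Across the 12 rats of each region, miR-200a-3p and miR-200c-3p were correlated with miR-204-5p, miR-211-5p and miR-34c-5p on deviations from the group means of log2(CPM + 1), and 0 of the 12 relations passed after Benjamini-Hochberg adjustment. The highest was miR-200c-3p with miR-34c-5p in thalamus (Pearson r = 0.60, permutation p = 0.0555, adjusted p = 0.625; Spearman rho = 0.59, permutation p = 0.0629, adjusted p = 0.755), which fell to r = 0.33 when the 2 libraries most distant from the miR-34c-5p median were dropped. For miR-200a-3p with miR-204-5p, r was 0.23 in cortex (permutation p = 0.483, adjusted p = 0.629; rho = -0.13, permutation p = 0.700, adjusted p = 1) and 0.51 in thalamus (permutation p = 0.156, adjusted p = 0.625; rho = 0.03, permutation p = 0.942, adjusted p = 1). Both were negative without the 2 farthest libraries (r = -0.54 and -0.59) and without rat 45 (r = -0.69 and -0.22), so the positive values rested on that rat. The permutation p without rat 45 was 0.0294 in cortex (adjusted p = 0.353) and 0.541 in thalamus (adjusted p = 0.722), so neither negative value passed.

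The miRNAs whose deviations from the group means were most like those of the summed family over the 24 libraries were miR-128-1-5p (Spearman rho 0.57), miR-152-3p, miR-183-5p and miR-378a-3p (each 0.55), miR-204-3p (0.52), miR-182 (0.51) and miR-146a-5p and miR-490-5p (each 0.50), out of 405. Over the 22 libraries without rat 45 this order was not kept. miR-490-5p (0.64) was then in place 10, miR-378a-3p (0.63) in place 12 and miR-128-1-5p (0.57) in place 32, miR-204-3p and miR-146a-5p were at 0.42 and 0.41, and miR-152-3p, miR-183-5p and miR-182 were at 0.30, 0.26 and 0.23. The highest were then miR-382-5p (0.74) and, at 0.71 each, miR-181d-5p, miR-1839-5p, miR-379-5p, miR-323-5p and miR-134-5p, named after their values were seen. Of the other choroid plexus and ependyma miRNAs in this ranking, over 24 libraries miR-34c-5p was at 0.45, miR-34c-3p at 0.23 and miR-34b-5p at 0.20. miR-204-5p was at 0.09, miR-34b-3p at 0.06 and miR-211-5p at 0.02. Without rat 45 these were 0.05, -0.14, -0.21, -0.34, -0.34 and -0.32 in that order. The points share libraries and depth, and the values are a description.

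Other tissues that a dissected piece could hold were read from lists chosen with earlier results of these data known, so calls within them are not independent of those results. The shares of all miRNAs called, to set beside these counts, were 5.66% for injury in cortex, 0.513% in thalamus, and 25.1% (sham) and 27.3% (TBI) for region. For injury in cortex, miR-375-3p was higher among 6 tested of 8 miRNAs of other epithelia (log2 fold change 1.78, edgeR adjusted p = 0.0231) and miR-199a-3p among 6 vessel wall and meningeal miRNAs (0.80, edgeR adjusted p = 0.0369). miR-1-3p was lower among 3 skeletal muscle miRNAs (-0.62, edgeR adjusted p = 0.0361) and miR-128-3p among 5 neuron and brain ones (-0.75, edgeR adjusted p = 0.0231). Without rat 45, where 1.59% of all miRNAs were called, only miR-375-3p of these passed (1.27, edgeR adjusted p = 0.0418). For injury in thalamus 0 miRNAs of these lists were called.

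Between regions, thalamus against cortex, 3 of the 6 tested miRNAs of other epithelia were higher and 2 lower in both sham and TBI rats. Of 4 tested sensory and neuroendocrine miRNAs, only miR-7b was called, higher in thalamus (1.31 in sham and 1.06 in TBI rats). Of the vessel wall and meningeal miRNAs 3 of 6 were lower in sham and 0 in TBI rats, of the skeletal muscle miRNAs 2 of 3 were lower in both, and of the neuron and brain miRNAs 3 of 5 in sham and 5 in TBI rats were lower. Of 4 leukocyte and 2 red cell miRNAs, 0 were called in any comparison with all rats. In TBI rats without rat 45, 3 vessel wall and meningeal miRNAs and 1 leukocyte miRNA (miR-223-3p) were lower in thalamus and 2 sensory and neuroendocrine miRNAs were higher, while the other counts for TBI rats were the same.

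In rat 45 several of the summed lists lay outside the other TBI rats. In both regions the vessel wall and meningeal sum was the highest of the TBI rats (61078 CPM in cortex, others at most 51861, and 54593 CPM in thalamus, others at most 42905). Sham rats reached 60298 CPM in cortex and 41103 CPM in thalamus. The cortex sum in rat 45 was mostly miR-143-3p (46431 CPM, next 44433). miR-145-5p, miR-199a-3p and miR-199a-5p were also above every other cortex library, while miR-126a-3p and miR-214-3p were below another. The neuron and brain sum was the lowest of the TBI rats in both regions (249648 CPM in cortex, others at least 266527, and 123397 CPM in thalamus, others at least 129328). That sum was mostly miR-128-3p (172222 and 68945 CPM) and miR-9a-5p (68442 and 48313 CPM). These, miR-137-3p and miR-138-5p were below the median of the other libraries in both regions. miR-124-3p of the same list was not low, at 1.06 times that median in cortex and 0.997 times in thalamus. In cortex the sum for other epithelia was the highest of the TBI rats by a small margin (1045 CPM, others at most 1033). It lay inside the sham cortex range of 697 to 1216 CPM. In thalamus the leukocyte sum (1973 CPM, others at most 1588) and the red cell sum (48.9 CPM, others at most 46.2) were the highest and the sensory and neuroendocrine sum the lowest (9515 CPM, others at least 10975). That lowest sum was mostly miR-7a-5p (8838 CPM), and miR-7b (544 CPM) was also below the median of the other thalamus libraries (746 CPM). The sensory pair of the same list went the other way. miR-182 (91.0 CPM, next 51.9) and miR-183-5p (40.9 CPM, next 35.6) were above every other thalamus library. The skeletal muscle sum lay inside the range of the other TBI rats in both regions. Their part in the family's level in rat 45 was not tested.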

How the data were processed

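The authors ligated and size-selected small RNA, sequenced it, trimmed adapters and mapped reads to the rat assembly RGSC3.4 with miRBase annotation; the mapper was not given in the sources used here. The deposited tables used here hold whole read counts per miRNA and library (0 columns without a sample). The deposited CPM tables were not used. Groups and rat numbers came from the sample titles, and the number joins both regions of a rat.

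miRNA counts were tested with edgeR 4.0.16 (TMM, filterByExpr, quasi-likelihood test, threshold 0.05), each region alone for injury and all 24 libraries together for region and interaction. DESeq2 1.42.0, other scalings and filters, rat as a block and leaving out each rat in turn were alternatives. Deviations from group means of the 2 regions of a rat correlated with a median r of 0.38 over 407 miRNAs, above 0.1 in 8 of 12 rats. The fits were tested on simulated data. Members and lists were chosen with earlier results of these data known. All members were named, with up to 4 called miRNAs of each list, 4 choroid plexus and ependyma miRNAs always, and the 8 most alike in pattern; other miRNAs were named after their values were seen. miR-486 of the red cell list was not analysed here. RefSeq tables (GRCr8) gave sequences and neighbours only, with no coordinates, since the builds differ.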

Additional observations from a re-analysis of the deposited data

Results flagged for a closer look

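Among 34 groups of 6 libraries examined for 1 library far from the other 5, 11 were picked out, and 10 of the 11 were rat 45. About 1.7 would be picked out by chance if the values were normally spread, but unlogged CPM was used. The groups are also not independent, since the whole family holds its own members and the same 2 libraries of rat 45 recur. The 10 are therefore not separate results, and the 1.7 gives no test of them. In TBI cortex rat 45 was at 64.3 CPM of miR-200a-3p (next 8.01), 39.1 CPM of miR-200b-3p (next 4.03), 25.3 CPM of miR-200c-3p (next 11.2) and 137 CPM of the whole family (next 19.2). Among the reference miRNAs it was at 2170 CPM of miR-204-5p (next 1272) and 1109 CPM of miR-34c-5p (next 546) there. In TBI thalamus it was at 17.3 CPM of miR-200a-3p (next 4.97), 13636 CPM of miR-204-5p (next 1967), 162 CPM of miR-211-5p (next 35.4) and 5755 CPM of miR-34c-5p (next 2288). The remaining one was sham rat 32, lowest of the sham cortex libraries at 6.16 CPM of the whole family (next 12.0).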

How the results depend on the processing

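Of the injury comparisons, 0 members were called in cortex and 0 in thalamus under every alternative that tested a member: library size alone, RLE scaling, DESeq2, no filter, a fit of all 24 libraries and each rat left out. The filter at a mean of 50 counts kept no member. For thalamus over cortex in TBI rats, the replicate block raised the number of members called from 0 to 1 with and without the filter (miR-200a-3p, -1.37 with it), and it changed no other call of a member. Against the TMM scaling, library size alone moved the median over all miRNAs, on the log2 scale, by 0.20 for injury in cortex and by 0.42 and 0.18 for region in sham and TBI rats, and -0.27 for the interaction.

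Estimates near 0 changed sign. In sham rats, thalamus over cortex for miR-200c-3p was 0.40 with library size alone, 0.000497 with RLE, 0.00794 with DESeq2, 0.0176 with the replicate block and 0.0786 with the block without rat 45, and miR-200a-3p was 0.29 with library size alone. In TBI rats miR-200c-3p was 0.11 with library size alone, 0.00259 with DESeq2 and 0.13 with the block without rat 45, where miR-429 was 0.0256, and the interaction of miR-200c-3p was 0.050. With each rat left out, miR-429 ranged from -0.21 to 3.98 for injury in cortex, -0.22 to 0.87 in thalamus, -0.48 to 3.13 for region in sham rats (also -0.25 without rat 32) and -1.13 to 0.20 in TBI rats, and miR-200a-3p from -0.50 to 0.97 for injury in thalamus and -0.63 to 0.17 for region in sham rats. miR-200c-3p ranged from -0.54 to 0.21 in sham rats, -0.32 to 0.16 in TBI rats and -0.30 to 0.49 for the interaction. The causes were not tested.

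Over all miRNAs, the 21 calls in cortex (11 higher, 10 lower) became 39 with library size alone (36 and 3), 41 with DESeq2 (26 and 15), 5 in the fit of all 24 libraries and 4 to 30 with each rat left out, falling to 4 to 12 without rat 24, 26, 32, 38, 45, 50 or 52. The 2 in thalamus became 5 in the fit of all 24 libraries, 1 with the stricter filter and 0 to 2 with each rat left out, falling without rat 26, 32, 34 or 38. The 102 calls for region in sham rats (52 and 50) became 168 with library size alone (146 and 22), and the 111 in TBI rats (57 and 54) became 103 (69 and 34). The 12 relations had 0 passing under the other scaling, the pseudocount of 0.1, and without the 2 farthest libraries or rat 45, the last of these chosen after seeing the data, as were the fits that combined no filter with another setting and the block without rat 45. Depth limits miR-429, miR-141-3p and the 5p arms, which had reads in 11 libraries or fewer.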
